A study of Mus musculus with 40 samples.

Results

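The mitosis and spindle genes described here are 45 genes that encode proteins of cell division: cyclins and kinases, checkpoint and kinetochore proteins, spindle motors, condensins, cytokinesis proteins and a pair of transcription factors. They were chosen by gene name and not by a cutoff on the measured values, but with earlier results of these data known. All 45 were found among the 39179 genes of the deposited RNA table. The study profiled CD4+ T cells from mouse spleen on the C57BL/6 strain, either Setdb1+/+ (WT) or Setdb1-/- (here labelled KO). A further genotype, Th2 cells lacking Suv39h1, is used here for 1 list of chromatin peaks. Setdb1 is a histone methyltransferase that places methyl groups on lysine 9 of histone H3. RNA was sequenced in 18 libraries of 6 groups: naive cells with no days in culture (4 WT and 3 labelled KO libraries), Th2 cells (3 and 3) and Th2 cells moved to Th1 conditions (2 and 3, called Th2-Th1 below). For Th2 cells, naive cells were stimulated on plate-bound anti-CD3epsilon with anti-CD28 in the presence of IL-4 (50 ng/mL) and antibody against IFNgamma (10 ug/mL), were replated on day 3 without the stimulating antibodies but with IL-2 (30 IU/mL), and were harvested on day 6. For Th2-Th1 cells, the day 6 cells were washed and cultured in IL-12 (10 ng/mL) with antibody against IL-4, and the labels give 2 days of culture. No source used here says in which cells Setdb1 was deleted or by which Cre driver. Nor does one say whether libraries of a group came from separate animals, so p-values measure the spread between libraries.

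A dividing cell enters mitosis when cyclin B activates Cdk1, whose inhibitory phosphates are removed by Cdc25 phosphatases. Polo and Aurora kinases then build the spindle, the checkpoint proteins hold back the anaphase-promoting complex until every kinetochore is attached, and Cdc20 finally turns that complex on. Most of these genes are transcribed late in the cell cycle by complexes of MuvB with B-Myb (encoded by Mybl2) and FoxM1, which act at CHR and CCAAT elements close to the start site. Naive T cells rest outside the cycle, and stimulation through the antigen receptor brings them into it.

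Promoter sequences are shown first because many of the members share short elements near their starts. RefSeq promoters (GRCm38.p6, from 250 bases before to 50 after the start) were found for 35 of the 45 members, and both strands were searched for 4 motifs. The CHR form TTTGAA, which reads as TTCAAA on the other strand, was present in 23 of the 35 promoters, or 65.7%, against 20.2% of the 27025 genes in the promoter table and 14.6% of the 10840 among them that were tested in the RNA data. Over the 250 bases before the start alone it was in 13 (37.1% against 18.3% and 13.1%). CCAAT, the box bound by NF-Y, whose other-strand form is ATTGG, was in 24 promoters (68.6% against 41.1% and 42.6%), and 14 promoters held it at least 2 times (40% against 13.3% and 16.1%). Both TTTGAA and CCAAT were present in 20 promoters (57.1% against 7.97% and 5.94%). The second CHR form, TTTAAA, was in 10 promoters (28.6% against 14.9% and 11.5%), and GCGGGAA, a core bound by E2F proteins, was in 2 (5.7% against 5.29% and 9.29%). Of 30 distinct TTTGAA matches in the member promoters, 24 began within 100 bases before to 50 after the start, counted from the nearer start where a gene has more than 1. The promoters of Nuf2, Nusap1, Ncaph, Mybl2, Melk and Mad2l1 had no match to any of the 4 motifs. A match is a run of letters and was not tested for binding here.

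**Figure D1:**
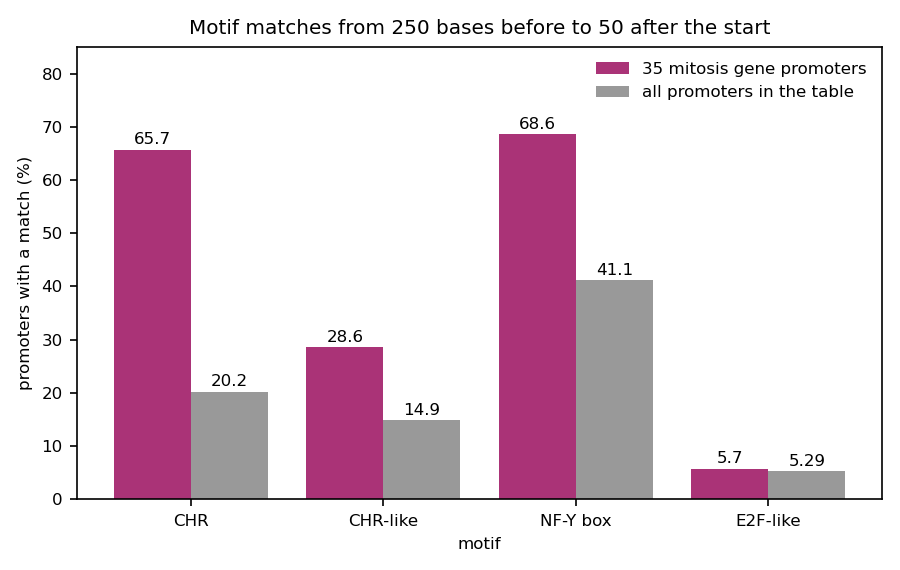
Bars give the percentage of promoters with at least 1 match on either strand to each of 4 motifs, for the 35 mitosis gene promoters and for all 27025 genes of the RefSeq promoter table. The CHR and NF-Y bars of the mitosis genes, 65.7% and 68.6%, stand above those of all promoters, 20.2% and 41.1%, while the E2F-like bars stand at 5.7% and 5.29%.

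The 6 promoters below belong to genes whose values are given in every library and hold the most matches among them. Each is printed 5′ to 3′ on the gene's own strand, from 250 bases before the start through the first 30 transcribed bases, and capitals mark the matches to both CHR forms and to CCAAT on either strand.
Top2a: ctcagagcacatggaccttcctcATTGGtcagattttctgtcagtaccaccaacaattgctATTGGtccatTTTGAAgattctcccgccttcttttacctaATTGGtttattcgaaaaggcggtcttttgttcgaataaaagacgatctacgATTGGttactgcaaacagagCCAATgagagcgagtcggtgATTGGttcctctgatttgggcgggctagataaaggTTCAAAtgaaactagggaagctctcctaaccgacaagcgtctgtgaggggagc
Ube2c: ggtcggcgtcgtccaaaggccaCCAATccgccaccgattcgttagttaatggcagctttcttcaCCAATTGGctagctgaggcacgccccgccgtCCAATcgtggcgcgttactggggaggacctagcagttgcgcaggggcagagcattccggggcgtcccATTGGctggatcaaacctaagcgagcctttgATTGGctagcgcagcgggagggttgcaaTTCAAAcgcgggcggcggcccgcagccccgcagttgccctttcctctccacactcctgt
Cdk1: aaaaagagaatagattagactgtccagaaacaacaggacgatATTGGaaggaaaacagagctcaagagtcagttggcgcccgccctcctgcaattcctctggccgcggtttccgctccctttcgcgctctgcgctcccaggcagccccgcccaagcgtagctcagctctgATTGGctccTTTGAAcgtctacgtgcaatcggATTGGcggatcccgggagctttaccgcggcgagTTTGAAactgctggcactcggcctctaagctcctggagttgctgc
Mki67: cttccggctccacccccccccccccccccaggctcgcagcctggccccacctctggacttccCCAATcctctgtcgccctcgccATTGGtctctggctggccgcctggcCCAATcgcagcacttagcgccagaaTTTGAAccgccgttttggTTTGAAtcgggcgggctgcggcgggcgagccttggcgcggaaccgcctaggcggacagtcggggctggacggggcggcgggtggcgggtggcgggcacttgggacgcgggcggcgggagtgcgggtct
Cenpf: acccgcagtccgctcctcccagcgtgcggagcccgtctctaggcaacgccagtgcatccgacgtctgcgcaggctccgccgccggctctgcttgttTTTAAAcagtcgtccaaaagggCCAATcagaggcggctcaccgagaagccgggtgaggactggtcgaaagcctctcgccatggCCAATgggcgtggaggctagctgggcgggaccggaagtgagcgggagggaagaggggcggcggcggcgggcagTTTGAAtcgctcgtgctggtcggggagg
Plk1: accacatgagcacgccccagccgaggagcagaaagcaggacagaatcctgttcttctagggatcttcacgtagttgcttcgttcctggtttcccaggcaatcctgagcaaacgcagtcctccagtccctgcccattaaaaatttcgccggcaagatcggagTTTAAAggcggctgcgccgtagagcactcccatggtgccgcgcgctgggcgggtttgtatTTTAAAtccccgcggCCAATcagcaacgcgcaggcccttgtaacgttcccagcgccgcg
These stretches lie at chr11:99024160-99024439 (GRCm38.p6, minus strand) for Top2a, chr2:164769679-164769958 (plus) for Ube2c, chr10:69352883-69353162 (minus) for Cdk1, chr7:135716350-135716629 (minus) for Mki67, chr1:189688057-189688336 (minus) for Cenpf and chr7:122159185-122159464 (plus) for Plk1. Top2a and Ube2c each held 6 CCAAT matches, of which 2 in Ube2c share bases and appear as a single run of capitals. Counting the start base as 0, the TTTGAA match nearest the start, on either strand, began at -23 in Top2a, -29 in Ube2c, -15 in Cdk1, -98 in Mki67 and 2 in Cenpf. In Plk1 it began at 30, just past the printed end, and the nearest TTTAAA began at -29.

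Depth differed with the groups. Naive libraries held 10019187 to 18510982 reads, Th2 WT libraries 10140907 to 13257516 and Th2-Th1 WT libraries 18900625 and 19840621. Labelled KO libraries held 36260766 to 44718627 reads in Th2 and 37208280 to 37603455 in Th2-Th1 cells. In naive cells, 3 reads correspond to normalized counts of 2.83 to 5.43. The number of genes with a read varied most among naive libraries, from 15296 to 25556, and WT 1, WT 3 and labelled KO 2 stood apart with the most. Setdb1 itself had normalized counts of 1336, 1366, 1325 and 1214 in naive WT libraries and 1103, 933 and 984 in naive libraries labelled KO, a difference of -0.38 on the log2 scale (adjusted p = 0.0319). In Th2 cells it went against the label, with 694, 933 and 841 in WT and 8070, 9044 and 8342 in the labelled KO libraries (log2 difference 3.37, adjusted p = 7.22e-14), and in Th2-Th1 cells it was also higher in the labelled KO (1.95, adjusted p = 3.04e-09). No source used here names the deleted part of the gene, so every direction below is between libraries labelled KO and WT. All log2 differences are on the log2(normalized count + 1) scale and carry their standard error (SE), and adjusted p-values come from limma unless another tool is named.

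The members together rose with culture and were highest in the Th2 libraries labelled KO. Without Smc4, which gave most of the members' reads in naive cells, they took 267 to 356 RPM (reads scaled to a common library size) in naive WT libraries and 914 to 1135 in naive libraries labelled KO. They took 4921 to 5251 in Th2 WT, 13544 to 15505 in Th2 labelled KO, 6636 and 7067 in Th2-Th1 WT, and 6307 to 8722 in Th2-Th1 labelled KO libraries. By group mean, 43 of the 45 members were lowest in naive WT cells and 40 were highest in Th2 cells labelled KO. Ncapg, Ttk and Aurkb were highest in Th2 WT, Ndc80 in Th2-Th1 WT, and Smc4 in naive labelled KO cells. In bulk RNA, more dividing cells and more RNA of these genes per cell cannot be told apart. Across the 18 libraries, 44 members followed the mean of all members with Pearson r of 0.744 (Cdc25b) or more, and Smc4 ran against it with r of -0.70. These correlations describe libraries that share groups.

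**Figure D2:**
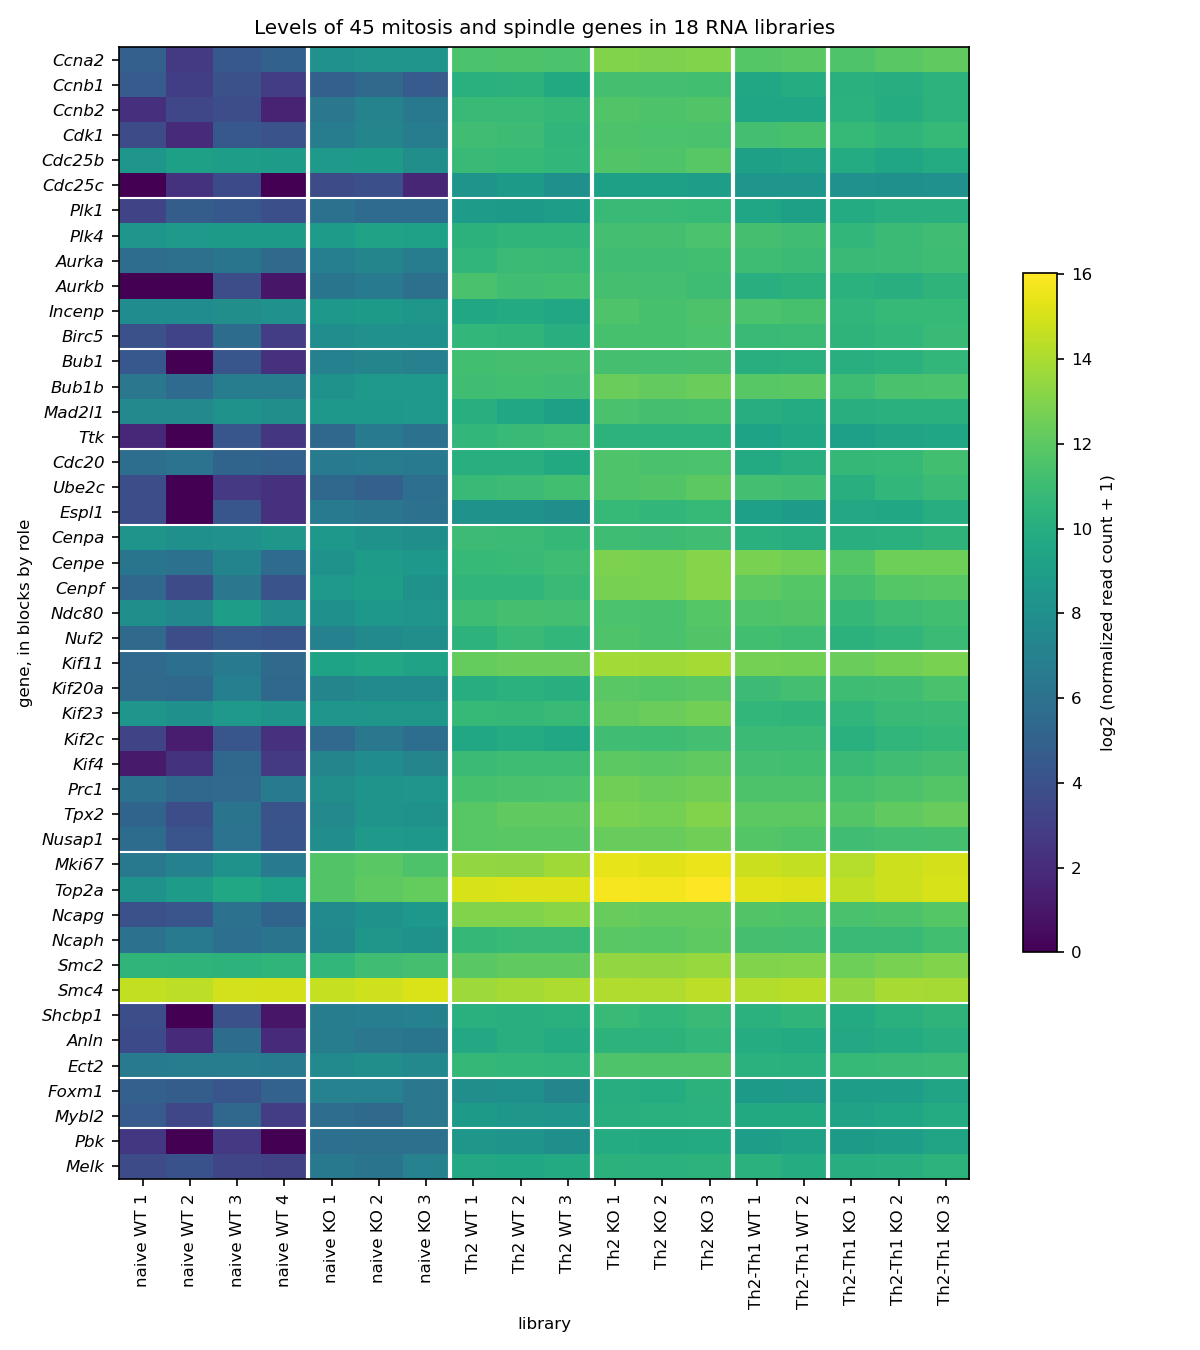
Each cell gives log2(normalized read count + 1) of 1 of the 45 genes (rows, in blocks by role) in 1 of the 18 libraries (columns, white lines between groups). The naive WT columns are the darkest and the Th2 KO columns the brightest in nearly every row, and Smc4 is the row that is bright in naive cells.

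In naive cells, 39 of the 45 members were higher in the libraries labelled KO than in WT and 0 were lower, where 7.43% of all 17254 tested genes were higher and 3.45% lower. Cdc25b alone was lower at an unadjusted p under 0.05 (0.0455), and edgeR and DESeq2 also gave 0 lower members. The median difference over the members was 2.96 on the log2 scale, against 0 over all tested genes. Its size depended on the setting. The members' median was 2.26 with a pseudocount of 5, 2.43 without WT 2, 2.44 by DESeq2 and 3.05 without WT 1, WT 3 and labelled KO 2. The largest differences were in Aurkb, Shcbp1, Mki67, Kif4 and Pbk, all at 4.56 or more. The 6 members that did not pass were Cdc25b (-0.37), Cdc25c (1.64), Cenpa (0.03), Ndc80 (0.27), Kif23 (0.12) and Smc4 (0.15). Normalized counts are listed below in the order of libraries 1 to 4 for WT and 1 to 3 for the labelled KO.

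Among mitotic cyclins and their kinase, 4 of 6 members were higher. Cdk1, the kinase that starts mitosis, stood at 12.5, 2.74, 19.9 and 16.1 in WT and 105, 153 and 108 in the labelled KO, and the groups did not overlap (log2 difference 3.39 ± 0.37 SE, adjusted p = 4.32e-06). Ccnb1, the cyclin B that activates it, stood at 23.7, 6.85, 14.5 and 6.61 in WT and 28.5, 45.8 and 22.9 in the labelled KO. These groups overlapped, since labelled KO 3 lay below WT 1, and the call (log2 difference 1.38 ± 0.32 SE, adjusted p = 0.00751) ended without labelled KO 2 (1.11, adjusted p = 0.0663). Ccna2 and Ccnb2, which encode cyclin A and a second cyclin B, differed by 4.07 and 3.92 with no overlap.

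All 6 Polo, Aurora and chromosomal passenger genes were higher. Aurkb, the kinase of the passenger complex, had 0, 0, 12.7 and 0.945 in WT and 75.6, 94.4 and 59.6 in the labelled KO libraries, so that in WT only library 3 was above the value of 3 reads (log2 difference 5.07 ± 0.57 SE, adjusted p = 5.48e-06). Birc5, or survivin, a partner of Aurkb, had 15.0, 8.22, 48.9 and 6.61 in WT and 230.4, 275 and 277 in the labelled KO (log2 difference 4.08 ± 0.39 SE, adjusted p = 8.68e-07). Plk1, the main Polo kinase of mitosis, had 8.73, 26.0, 19.9 and 14.2 in WT and 63.2, 47.2 and 47.0 in the labelled KO (log2 difference 1.64 ± 0.25 SE, adjusted p = 0.000163). None of these pairs of groups overlapped. Of the 3 smallest called differences, those of Incenp and Plk4 came from here. Incenp, the scaffold of the passenger complex, had 223, 218, 241 and 273 in WT and 369, 416 and 354 in the labelled KO (0.67 ± 0.11 SE, adjusted p = 0.000347). Plk4, which drives centriole duplication, had 346, 411, 416 and 421 in WT and 459.6, 605 and 585 in the labelled KO (0.46 ± 0.13 SE, adjusted p = 0.0225). Neither pair of groups overlapped, but the call on Plk4 ended without WT 1, labelled KO 2 or labelled KO 3 (adjusted p from 0.0608 to 0.13).

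The 4 spindle checkpoint genes and the 3 genes of anaphase were all higher. Bub1, a checkpoint kinase, had 19.96, 0, 18.1 and 3.78 in WT and 133, 153 and 127 in the labelled KO (log2 difference 4.38 ± 0.64 SE, adjusted p = 0.00012). Cdc20, the activator of the anaphase-promoting complex, had 54.9, 68.5, 34.4 and 30.2 in WT and 91.7, 109.6 and 98.6 in the labelled KO (1.15 ± 0.21 SE, adjusted p = 0.00137). Ube2c, the ubiquitin-conjugating enzyme of that complex, had 13.7, 0, 5.43 and 3.78 in WT and 39.6, 29.1 and 57.3 in the labelled KO (3.17 ± 0.53 SE, adjusted p = 0.000518). In each of these genes every labelled KO library lay above every WT library, although Bub1 and Ube2c had no read in WT 2. The remaining ones were Bub1b at 2.13, Ttk at 3.87, Mad2l1 at 0.74 and the separase gene Espl1 at 3.67.

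Of the kinetochore genes, 3 of 5 were higher, and of the spindle motors and microtubule proteins, 7 of 8. Cenpf, a large kinetochore protein, had 39.9, 12.3, 79.7 and 16.1 in WT and 405, 489.9 and 286 in the labelled KO (log2 difference 3.71 ± 0.40 SE, adjusted p = 3.27e-06). Kif11, the motor that pushes the spindle poles apart, had 43.7, 57.5, 92.3 and 45.4 in WT and 629, 780.0 and 612 in the labelled KO (3.53 ± 0.18 SE, adjusted p = 1.99e-10). Kif4, a chromosome-bound motor, had 1.25, 4.11, 39.8 and 5.67 in WT and 154, 223 and 156 in the labelled KO (4.56 ± 0.55 SE, adjusted p = 1.55e-05). The groups did not overlap in these genes, and WT 3 was the highest WT library in each. Cenpa, the centromeric histone, had 311, 262, 272 and 349.6 in WT and 368, 301 and 248 in the labelled KO, and the groups overlapped (0.03 ± 0.14 SE, adjusted p = 0.953).

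Among the chromosome genes, Mki67, the Ki-67 antigen used to mark dividing cells, had 88.6, 129, 281 and 99.2 in WT and 3253, 3933 and 2931 in the labelled KO. Every labelled KO library stood far above every WT library, and the difference was 4.64 ± 0.26 SE, adjusted p = 7.41e-10 on the log2 scale. Top2a, the topoisomerase that untangles chromosomes, had 301, 439.7, 753 and 532 in WT and 3292, 4197 and 4898 in the labelled KO (3.08 ± 0.21 SE, adjusted p = 5.25e-09). Smc2, a condensin core subunit, had 1402, 1355, 1338 and 1441 in WT and 1577, 2204 and 2536 in the labelled KO (0.58 ± 0.13 SE, adjusted p = 0.00564). Smc4, its partner in condensin, was abundant in both groups, with 24520, 21780, 30730 and 32910 in WT and 25420, 29890 and 35490 in the labelled KO, and the groups overlapped (0.15 ± 0.15 SE, adjusted p = 0.657). Shcbp1, a cytokinesis protein, had 13.7, 0, 14.5 and 0.945 in WT and 110.3, 115 and 133 in the labelled KO (4.71 ± 0.63 SE, adjusted p = 4.8e-05). Both transcription factors were higher as well. Foxm1 had 28.7, 26.0, 18.1 and 31.2 in WT and 138, 139 and 80.2 in the labelled KO (2.13 ± 0.23 SE, adjusted p = 3.83e-06), and Mybl2 had 23.7, 9.59, 41.6 and 6.61 in WT and 52.0, 45.8 and 81.4 in the labelled KO (1.79 ± 0.40 SE, adjusted p = 0.00551). Neither pair of groups overlapped.

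Some markers of other T cell states moved with the members in naive cells. Of 7 activated T cell markers, 3 were higher (Il2ra, Tnfrsf4 and Tnfrsf9) and 1 lower (Cd44) in the labelled KO. The summed level of the 7 was 5941 to 7759 in WT and 8594 to 11608 in the labelled KO libraries. Cd69, which was not called, made up much of it (3166 to 5066 in WT and 5060 to 7972 in the labelled KO). Of 6 regulatory T cell markers, 4 were higher, Il2ra again among them, and the sum was 1411 to 1698 in WT and 2613 to 2972 in the labelled KO. Foxp3, the defining factor of regulatory T cells, had 32.4, 21.9, 67.0 and 32.1 in WT and 194, 187 and 157 in the labelled KO, groups that did not overlap although the difference did not pass (2.31, adjusted p = 0.0555). Of 9 T cell identity markers, 1 was higher and 1 lower, and Cd4 itself had 16480, 17230, 16940 and 15150 in WT and 14470, 13300 and 17110 in the labelled KO. None of 7 naive T cell markers was called, with sums of 73426 to 84636 in WT and 67285 to 81773 in the labelled KO. None of 8 tested B and plasma cell, 5 erythroid, 4 immature thymocyte or 2 CD8 T cell markers was called, and 1 of 7 myeloid markers was lower. Ptcra was at 0 in every naive WT and Cd14 in every naive labelled KO library. The part of these cells in the result was not tested. Without WT 1, WT 3 and labelled KO 2, an alternative added after seeing the data, 37 members were higher and 0 lower. With only the naive libraries in the fit 34 were higher, and the calls on Plk1 (adjusted p = 0.0567), Cdc20 (0.0625), Mybl2 (0.0895), Plk4 (0.0927) and Ccnb1 (0.199) ended. Over all genes, the 1877 calls became 1028 in that fit, 1077 without labelled KO 2 and 1178 without labelled KO 1, so the background shares move too.

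**Figure D3:**
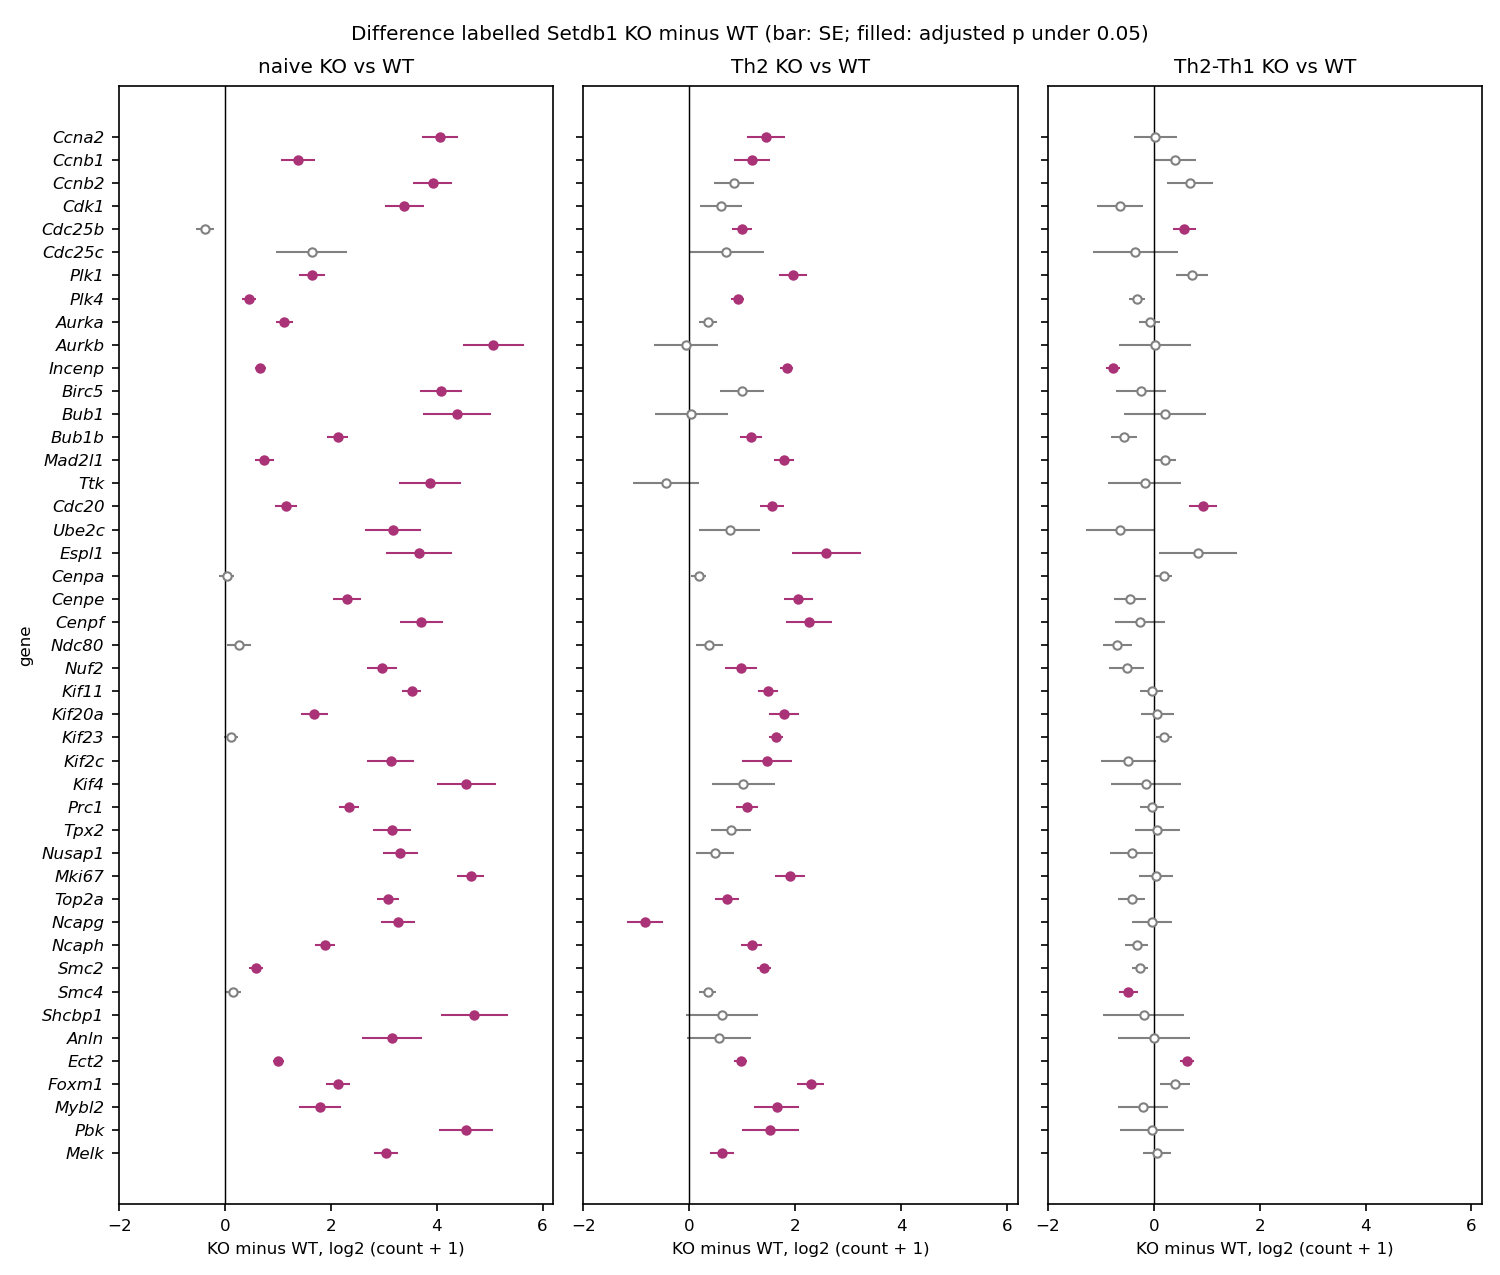
Points give the log2 difference labelled KO minus WT of each of the 45 genes in naive, Th2 and Th2-Th1 cells, bars give the SE from limma, and filled points passed an adjusted p of 0.05. Most points lie right of 0 in naive and Th2 cells (39 and 27 filled), and they gather around 0 in Th2-Th1 cells (medians 2.96, 1.00 and -0.04).

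Th2 culture raised nearly all members in both genotypes. In WT cells, 44 of 45 were higher in Th2 than in naive libraries and 1 lower, against 32.8% and 33.1% of all tested genes, with a median of 6.03. In the labelled KO, 44 were higher and 1 lower, against 28.3% and 25.2%, with a median of 4.09. The largest rises in WT were in Aurkb (10.07 ± 0.57 SE, adjusted p = 6.54e-12), Ube2c (8.78 ± 0.53 SE, adjusted p = 2.11e-11) and Ttk (8.66 ± 0.58 SE, adjusted p = 8.28e-11), where Ttk encodes the checkpoint kinase Mps1. The smallest were in Plk4 (1.77 ± 0.13 SE, adjusted p = 2.1e-10) and Smc2 (1.60 ± 0.13 SE, adjusted p = 1.33e-09). In the labelled KO the largest were in Ube2c (6.38 ± 0.57 SE, adjusted p = 1.35e-08), Ccnb1 (6.24 ± 0.34 SE, adjusted p = 1.19e-11) and Cdc25c (5.94 ± 0.71 SE, adjusted p = 7.3e-07), and the smallest again in Smc2 (2.42) and Plk4 (2.22). Cdc25c, a phosphatase that activates Cdk1, went from 12.4, 13.9 and 2.29 in naive to 543, 558 and 499.6 in Th2 libraries labelled KO. Smc4 was the member that fell, from 24520, 21780, 30730 and 32910 to 13070, 14850 and 16830 in WT (-0.87 ± 0.15 SE, adjusted p = 5.37e-05) and from 25420, 29890 and 35490 to 17660, 17490 and 21760 in the labelled KO (-0.67 ± 0.16 SE, adjusted p = 0.00191). Its annotated span also holds the microRNA genes Mir15b and Mir16-2.

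The rise on the log2 scale differed between genotypes. A smaller log2 change is a smaller ratio to the naive level and need not be a smaller rise in counts. Mki67, whose log2 change was smaller in the labelled KO, went from a mean of 149 to 11720 in WT and from 3373 to 43650 in the labelled KO. How many members did so was not counted. As a test of the difference itself, the Th2 minus naive change was smaller in the labelled KO for 25 members and larger for 5, where 20.6% of all tested genes were lower and 20.7% higher (median -1.25 against 0.10). Without the 3 naive libraries that stood apart the members' median was -2.09, with 27 smaller and 6 larger. With edgeR's TMM scaling, the counts over all genes went from 3575 higher and 3547 lower to 4505 and 2934, and those over the members to 6 and 23. The difference was greatest in Aurkb (-5.13 ± 0.83 SE, adjusted p = 5.77e-05), Bub1 (-4.35 ± 0.94 SE, adjusted p = 0.000973) and Ttk (-4.30 ± 0.84 SE, adjusted p = 0.000412). In these 3 genes naive WT values were close to 0 and the Th2 genotypes were not called different in the full fit. It was smallest among the lower ones in Ncaph (-0.71 ± 0.27 SE, adjusted p = 0.0446) and Aurka (-0.76 ± 0.23 SE, adjusted p = 0.0114). The 5 members with a larger log2 rise in the labelled KO were Kif23 (1.52), Cdc25b (1.37), Incenp (1.17), Mad2l1 (1.04) and Smc2 (0.83 ± 0.19 SE, adjusted p = 0.00149). The calls on Ncaph and Kif2c ended in most fits that left out 1 library (adjusted p from 0.0526 to 0.141).

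Within Th2 cells, 27 members were higher in the labelled KO and 1 lower, where 29.3% of all tested genes were higher and 24.7% lower. The median was 1.00 over the members and 0.13 over all tested genes, which TMM scaling moved to 0.28. Of the 39 members higher in naive cells and the 27 higher in Th2 cells, 25 were the same, and Cdc25b and Kif23 were higher in Th2 alone. Cdc25c, Cenpa, Ndc80 and Smc4 passed in neither. Since most members were called in each comparison, a large overlap follows from these counts and is no result of its own. With only the 6 Th2 libraries in the fit, 40 members were higher and 2 lower, and the 28 calls of the full fit were all among them in the same direction. Over all genes, 5164 of 14444 tested were higher and 4689 lower in that fit. The labelled KO Th2 libraries were also the deeper ones, and the part of depth was not tested. Naive T cell markers summed to 17483 to 18273 in WT and 5214 to 6398 in the labelled KO (4 of 7 lower, 1 higher). Myeloid markers summed to 1525 to 1951 and 5046 to 5787 (1 of 7 tested higher, Emr1). Activated T cell markers, whose sum was higher in naive cells labelled KO, summed to 102097 to 107036 in WT and 70443 to 81960 in the labelled KO (3 of 7 higher, 3 lower). Regulatory T cell markers summed to 77791 to 85112 and 32465 to 40797 (2 of 6 higher, 2 lower), and immature thymocyte markers to 887 to 1045 and 62.7 to 123 (2 of 4 tested higher, 1 lower). The lower thymocyte marker was Dntt (-7.03), while Arpp21 (2.69) and Cd1d1 (1.38) were higher. The part of these lists was not tested.

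The cyclin and kinase genes were split in the full fit. With only the Th2 libraries in the limma fit, Cdk1 (adjusted p = 0.0018), Birc5 (3.58e-05) and Aurka (0.0113) were called higher, and Aurkb was not. Ccnb1 had 1163, 1243 and 843 in WT and 2552, 2373 and 2332 in the labelled KO Th2 libraries (log2 difference 1.18 ± 0.34 SE, adjusted p = 0.00663). Plk1 had 439.6, 416 and 501 in WT and 1828, 1746 and 1697 in the labelled KO (1.96 ± 0.26 SE, adjusted p = 3.51e-06). Cdk1 had 2194, 2028 and 1497 in WT and 2978, 2896 and 2713 in the labelled KO, which did not overlap, yet the difference missed the threshold (0.60 ± 0.40 SE, adjusted p = 0.215). The same held for Birc5, with 1555, 1429 and 1095 in WT and 2589, 2644 and 2806 in the labelled KO (0.99 ± 0.42 SE, adjusted p = 0.0537). Aurkb overlapped, with 2797, 2253 and 2320 in WT and 2490, 2404 and 2146 in the labelled KO (-0.06 ± 0.61 SE, adjusted p = 0.954). Incenp had 774, 900.0 and 796 in WT and 3178, 2647 and 3014 in the labelled KO, every labelled KO value lying above every WT value (1.84 ± 0.12 SE, adjusted p = 1.35e-10). Aurka, the Aurora kinase of the spindle poles, had 1488, 1928 and 1883 in WT and 2175, 2237 and 2355 in the labelled KO and was not called (0.36 ± 0.17 SE, adjusted p = 0.0757).

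Checkpoint and anaphase genes were split in the same way in the full fit. With only the Th2 libraries in the limma fit, Ube2c was called higher (adjusted p = 0.000129) and Ttk lower (0.00583), and Bub1 was not called. Bub1 had 2295, 2483 and 2530 in WT and 2523, 2412 and 2556 in the labelled KO, with overlap (0.04 ± 0.69 SE, adjusted p = 0.986). Ttk had 1536, 1755 and 2118 in WT and 1327, 1303 and 1332 in the labelled KO, each labelled KO value below each WT value but the difference not called (-0.44 ± 0.62 SE, adjusted p = 0.589). By contrast Cdc20 had 1057, 1048 and 868 in WT and 3100, 2786 and 2876 in the labelled KO (1.56 ± 0.23 SE, adjusted p = 9.64e-06). Espl1 gave the largest difference of all members, with 290.3, 288 and 247 in WT and 1691, 1581 and 1694 in the labelled KO (2.59 ± 0.66 SE, adjusted p = 0.00251). The groups were far apart in both of these genes. Ube2c had 1845, 1991 and 2280 in WT and 3108, 3316 and 3979 in the labelled KO, without overlap and not called (0.76 ± 0.57 SE, adjusted p = 0.279).

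Kinetochore and motor genes were mostly higher, 3 of 5 and 5 of 8. Cenpf had 1470, 1464 and 1776 in WT and 6926, 6997 and 8729 in the labelled KO (2.26 ± 0.43 SE, adjusted p = 0.00016), and Kif11 had 4819, 5368 and 5196 in WT and 14320, 13550 and 15210 in the labelled KO (1.49 ± 0.19 SE, adjusted p = 2.37e-06). In both genes the lowest labelled KO library stood above the highest WT library. Mki67 had 10950, 10710 and 13500 in WT and 43280, 39680 and 47990 in the labelled KO (1.90 ± 0.28 SE, adjusted p = 1.2e-05). Top2a had 34690, 37640 and 36540 in WT and 58430, 54220 and 66610 in the labelled KO (0.71 ± 0.22 SE, adjusted p = 0.0103). Neither of these chromosome genes overlapped between groups. Ncapg, a regulatory subunit of condensin, was the lower one, with 8097, 7986 and 9303 in WT and 4951, 4684 and 4629 in the labelled KO (-0.83 ± 0.34 SE, adjusted p = 0.0488). That call ended on leaving out any 1 of the 6 Th2 libraries (adjusted p from 0.0797 to 0.125), while its groups did not overlap. Ncaph, another condensin subunit, had 1631, 1867 and 1751 in WT and 3950, 3758 and 4207 in the labelled KO (1.18 ± 0.20 SE, adjusted p = 5.2e-05).

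The transcription factors were both higher in Th2 cells labelled KO. Foxm1 had 238, 259.8 and 165 in WT and 1017, 957 and 1240 in the labelled KO (2.29 ± 0.25 SE, adjusted p = 2.09e-07), and Mybl2 had 423, 360.0 and 329 in WT and 1121, 1142 and 1223 in the labelled KO (1.65 ± 0.42 SE, adjusted p = 0.00263). The groups were separate in both. Melk, a kinase of dividing cells, gave the smallest called difference, with 823, 764 and 881 in WT and 1240, 1206 and 1340 in the labelled KO (0.62 ± 0.23 SE, adjusted p = 0.0315). It lost its call without any of 5 of the 6 Th2 libraries (adjusted p from 0.0579 to 0.0918), and Pbk, a second such kinase (1.53), lost it without labelled KO 1 or WT 3 (adjusted p from 0.0575 to 0.0709).

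**Figure D4:**
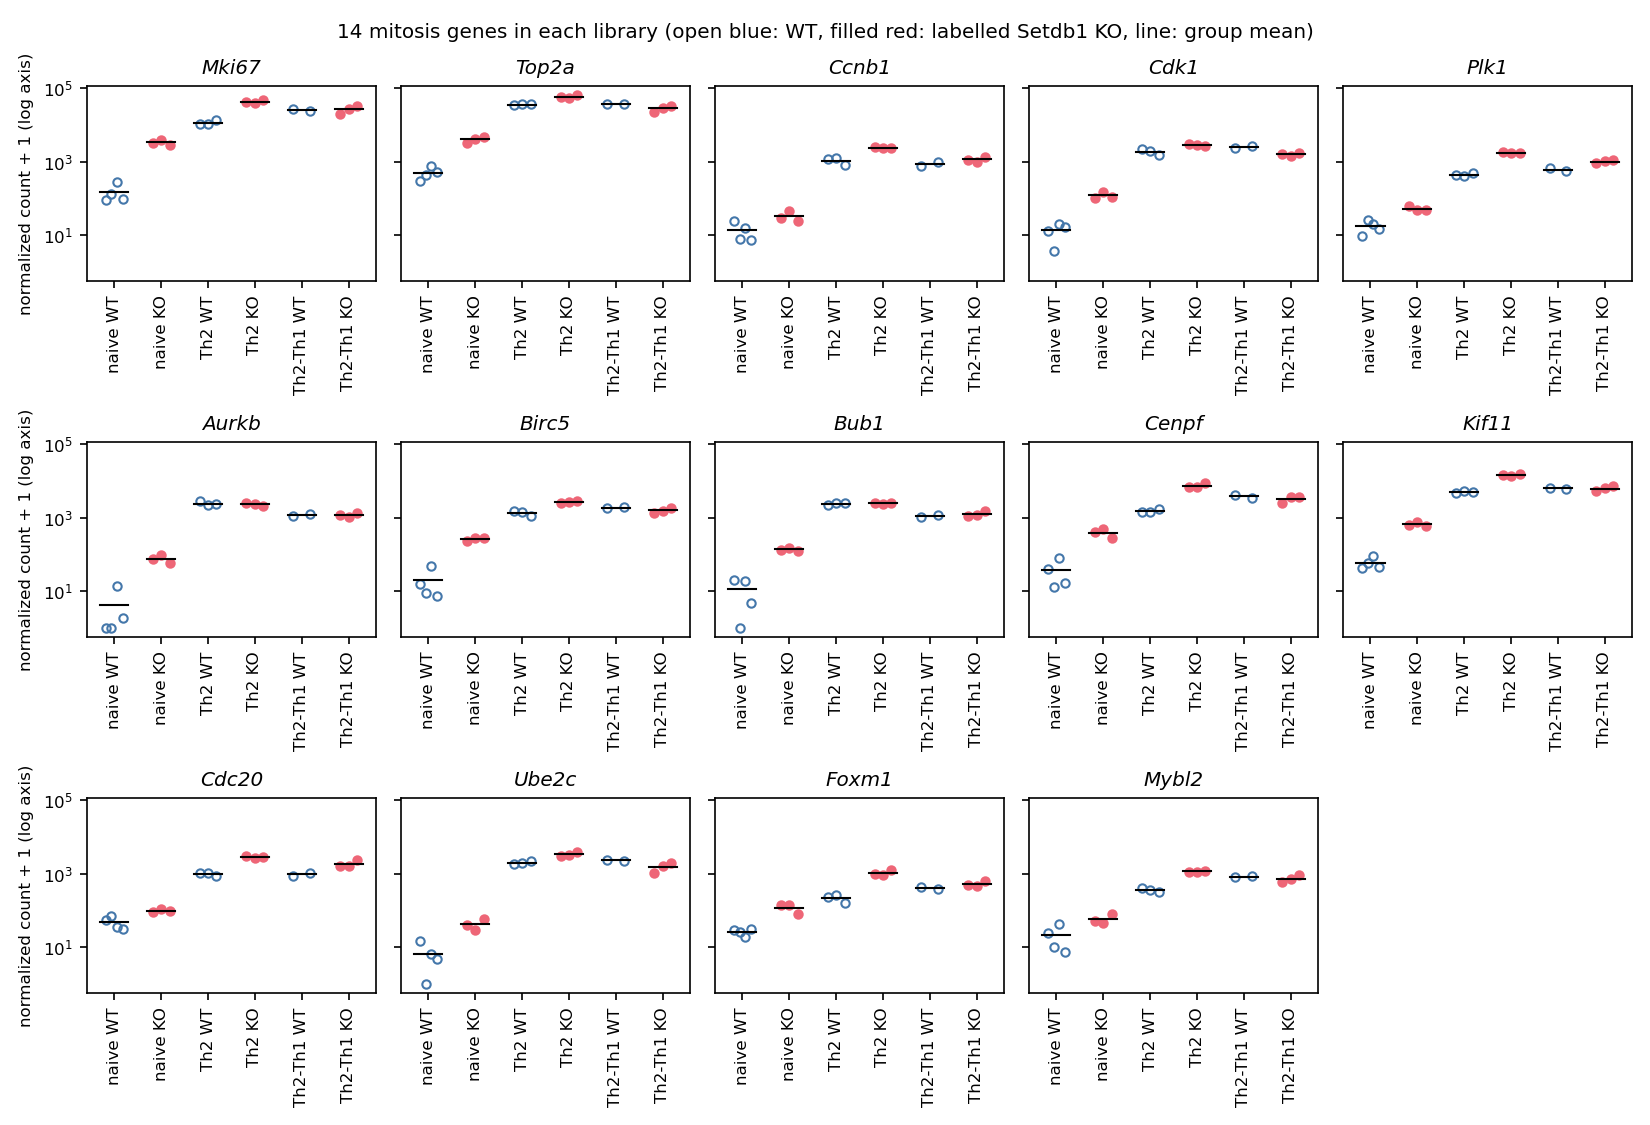
Each panel plots the normalized count + 1 (log axis) of 1 gene in every library of the 6 groups, open blue circles for WT and filled red circles for the labelled KO, with black lines at group means. Mki67, Foxm1 and Cenpf peak in the Th2 KO column, whereas Aurkb and Bub1 are level between the Th2 columns.

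On the move from Th2 to Th1 conditions, 10 members were higher and 5 lower in WT Th2-Th1 than in WT Th2 libraries, against 25.8% and 24% of all tested genes. These WT counts do not exceed the shares of all genes and are no result about the members. In the labelled KO 0 were higher and 22 lower (background 13% and 13.6%), and all 45 values were negative, from -1.96 to -0.16. No member was higher in the labelled KO at an unadjusted p under 0.05, and edgeR and DESeq2 also gave 0. The change itself was lower in the labelled KO than in WT for 21 members and higher for 0, where 18.2% and 17.3% of all genes were (median -1.22 against -0.05). At an unadjusted p under 0.05 the count of higher members was also 0, by edgeR it was 0, and by DESeq2 it was 1. Of the 22 members that fell in the labelled KO, 4 also fell in WT (Ccnb2, Cdc25b, Cenpa and Ect2), 12 were not called there, and 6 rose there (Incenp, Bub1b, Cenpf, Plk4, Smc2 and Foxm1). Marker sums moved as well. Myeloid markers went from 1525 to 1951 in Th2 to 65.1 and 93.3 in Th2-Th1 libraries of WT, and from 5046 to 5787 to 105 to 177 in the labelled KO, with 2 of 7 tested lower in each. The lower ones were Emr1 (-5.27 in WT and -6.58 in the labelled KO) and Fcgr3 (-3.83 and -2.13). The myeloid list did not move as 1: from naive to Th2 cells of WT, Emr1 rose (8.53) while Lyz2 (-4.44), Itgam (-4.81) and Csf1r (-2.76) fell. T cell identity markers went from 49243 to 52077 to 102064 and 106973 in WT (7 of 9 higher, 1 lower) and from 39618 to 44757 to 49509 to 58672 in the labelled KO (6 higher, 1 lower). The part of these markers, or of cells that carry them, in the change was not tested.

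**Figure D5:**
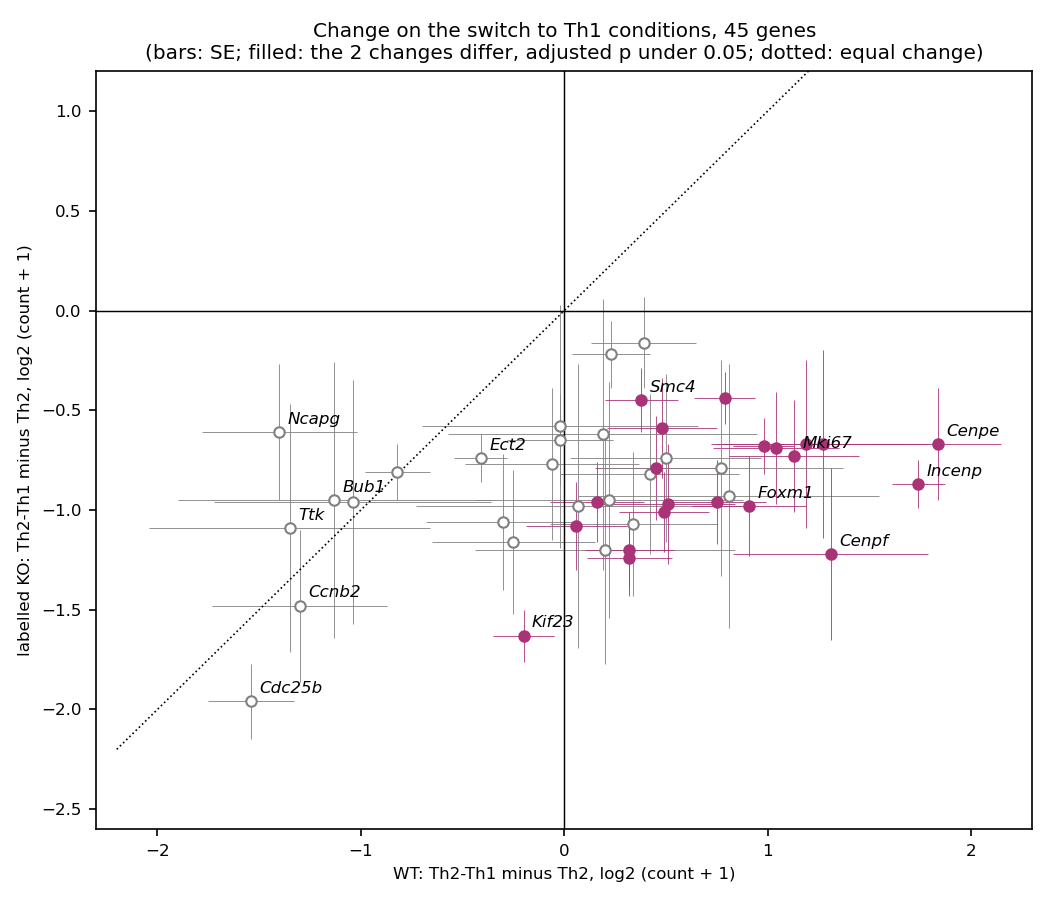
Each point is 1 of the 45 genes, placed by its Th2-Th1 minus Th2 change in WT (horizontal) and in the labelled KO (vertical), both in log2(normalized count + 1), with SE bars. Every point lies below 0 on the vertical axis, and the filled points, 21 genes whose changes differ between genotypes, lie below the dotted line of equal change.

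Incenp of the passenger complex and the kinetochore genes Cenpe and Cenpf rose in WT and not in the labelled KO. Incenp had 2868 and 2627 in WT and 1490, 1672 and 1679 in labelled KO Th2-Th1 libraries. Beside the Th2 values above, this was a rise of 1.74 ± 0.13 SE, adjusted p = 1.9e-09 in WT and a change of -0.87 ± 0.12 SE, adjusted p = 1.11e-05 in the labelled KO, and the changes differed by -2.61 ± 0.17 SE, adjusted p = 2.32e-09. Cenpe, the kinetochore motor CENP-E, had 1698, 1874 and 2083 in Th2 and 7106 and 6375 in Th2-Th1 WT libraries (1.84 ± 0.31 SE, adjusted p = 6.27e-05). In the labelled KO it had 7610, 7203 and 8787 and 3587, 5835 and 5721 (-0.67 ± 0.28 SE, adjusted p = 0.0876). The difference of the changes was -2.51 ± 0.42 SE, adjusted p = 0.000104. Cenpf stood at 4256 and 3519 in WT and 2498, 3623 and 3722 in the labelled KO after the move, and its changes differed by -2.52 ± 0.64 SE, adjusted p = 0.00426. Ndc80, the core of the microtubule-binding kinetochore complex, gave one of the smaller called differences (-1.06 ± 0.37 SE, adjusted p = 0.0302). Its values were 2111, 2499 and 2387 and then 3174 and 3310 in WT, and 2897, 2694 and 3538 and then 1617, 2156 and 2341 in the labelled KO. Ndc80 thus moved up in WT and down in the labelled KO without either change being called in the full fit (0.48 and -0.59). Both were called by limma with only the libraries compared (adjusted p = 0.00272 and 0.00778).

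Mki67 and the transcription factors followed that pattern. Mki67 stood at 26940 and 24210 in WT and 19740, 28200 and 32320 in labelled KO Th2-Th1 libraries, a change of 1.13 ± 0.32 SE, adjusted p = 0.00564 in WT and -0.73 ± 0.28 SE, adjusted p = 0.0642 in the labelled KO. The groups overlapped after the move, and the changes differed by -1.86 ± 0.42 SE, adjusted p = 0.00187. Foxm1 stood at 431 and 384 in WT and 509, 478 and 642 in the labelled KO (changes 0.91 and -0.98, differing by -1.89 ± 0.37 SE, adjusted p = 0.000525). Mybl2 stood at 835 and 853 in WT and 592, 721 and 911 in the labelled KO (changes 1.19 and -0.67, differing by -1.86 ± 0.63 SE, adjusted p = 0.0277). Foxm1 did not overlap between the genotypes and Mybl2 did. Kif11 stood at 6669 and 6170 in WT and 5334, 6376 and 7153 in the labelled KO (changes 0.32 and -1.20, differing by -1.52 ± 0.29 SE, adjusted p = 0.000391). Prc1, which bundles microtubules at the midzone, went from 2603, 2694 and 2829 to 3007 and 3052 in WT and from 5934, 5397 and 6003 to 2588, 2999 and 3391 in the labelled KO (differing by -1.12 ± 0.31 SE, adjusted p = 0.00746).

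Other members fell in both genotypes or moved little in WT. Cdc25b, a phosphatase that activates Cdk1, went from 1756, 1679 and 1592 to 559 and 591 in WT (-1.54 ± 0.21 SE, adjusted p = 4.52e-06). In the labelled KO it went from 3270, 3061 and 3746 to 941, 727 and 928 (-1.96 ± 0.19 SE, adjusted p = 1.58e-07). It gave the largest fall in both genotypes, with no overlap between Th2 and Th2-Th1 libraries. Ccnb2 went from 1827, 1844 and 1624 to 700.4 and 728 in WT (-1.30 ± 0.43 SE, adjusted p = 0.0159) and from 3307, 3037 and 3215 to 1181, 962 and 1312 in the labelled KO (-1.48 ± 0.38 SE, adjusted p = 0.00623). Ect2, the exchange factor that starts the cleavage furrow, went from 1615, 1574 and 1489 to 1198 and 1156 in WT (-0.41 ± 0.13 SE, adjusted p = 0.0138) and from 3120, 2965 and 3052 to 1688, 1794 and 1980 in the labelled KO (-0.74). In both of these genes the Th2-Th1 libraries lay below the Th2 libraries of their genotype. Kif23, the motor of the midzone centralspindlin complex, went from 1714, 1618 and 1801 to 1543 and 1443 in WT (-0.20, not called) and from 4693, 5212 and 6135 to 1466, 1756 and 1960 in the labelled KO (-1.63 ± 0.13 SE, adjusted p = 2.28e-08).

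Plk4, Bub1b and Smc2 rose in WT and fell in the labelled KO, each by under 1 unit. Plk4 went from 1248, 1405 and 1412 to 2466 and 2206 in WT (0.79 ± 0.15 SE, adjusted p = 0.00021) and from 2377, 2477 and 2805 to 1563, 1954 and 2183 in the labelled KO (-0.44 ± 0.13 SE, adjusted p = 0.0195). Bub1b, the checkpoint protein BubR1, went from 2234, 2316 and 2183 to 3659 and 3894 in WT (0.75 ± 0.24 SE, adjusted p = 0.0128) and from 5167, 4613 and 5270 to 2149, 2740 and 2867 in the labelled KO (-0.96). Smc2 went from 3871, 4336 and 4371 to 7962 and 8612 in WT (0.98) and from 10910, 10570 and 11830 to 5817, 7068 and 8034 in the labelled KO (-0.68 ± 0.14 SE, adjusted p = 0.000807). The Th2 and Th2-Th1 libraries of a genotype did not overlap in these 3 genes. Smc4 stood at 18690 and 20010 in WT and 11210, 15640 and 15040 in labelled KO Th2-Th1 libraries, and its changes differed by -0.83 ± 0.25 SE, adjusted p = 0.0126.

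The other genes shown in every library divided in the same way. Top2a stood at 38210 and 37310 in WT and 23460, 28700 and 33360 in the labelled KO, a fall in the labelled KO (-1.08 ± 0.22 SE, adjusted p = 0.001) with little change in WT (0.06). Plk1 stood at 683 and 555 in WT and 908, 1044 and 1100 in the labelled KO (0.45 and -0.79 ± 0.26 SE, adjusted p = 0.031). Cdc20 stood at 887 and 1063 in WT and 1623, 1684 and 2341 in the labelled KO (-0.02 and -0.65 ± 0.23 SE, adjusted p = 0.0401). In Plk1 and Cdc20 every labelled KO library stood above every WT library. Cdk1 stood at 2411 and 2638 in WT and 1683, 1447 and 1736 in the labelled KO, the WT libraries being the higher ones and neither change called (0.42 and -0.82). Ccnb1 stood at 776 and 975 in WT and 1156, 1005 and 1327 in the labelled KO (-0.30 and -1.06 ± 0.34 SE, adjusted p = 0.0251). Birc5 stood at 1853 and 1952 in WT and 1398, 1588 and 1872 in the labelled KO (0.50 and -0.74, not called). Birc5 overlapped between the genotypes, and Ccnb1 did not. Aurkb stood at 1106 and 1271 in WT and 1204, 1072 and 1356 in the labelled KO, lower than in Th2 by about the same amount in each genotype (-1.04 and -0.96, not called). Bub1 stood at 1063 and 1169 in WT and 1124, 1227 and 1568 in the labelled KO (-1.13 and -0.95, not called). Ube2c stood at 2421 and 2256 in WT and 1088, 1592 and 1948 in the labelled KO (0.20 and -1.20, not called). These misses belong to the full fit. With only the libraries compared, limma called the changes of Cdk1, Birc5, Aurkb and Bub1 in both genotypes (adjusted p of 0.0321 or less). It called that of Ube2c in the labelled KO alone (adjusted p = 0.000368).

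These counts depend on which libraries enter the fit. With only the libraries compared, 23 members were higher and 9 lower in WT, 0 and 43 in the labelled KO, and the change was lower in the labelled KO for 38 and higher for 1. Every call of the full fit was among them. Over all genes, 4205 of 14256 tested were higher and 4129 lower in WT with these libraries. In the labelled KO it was 3276 and 3306 of 14253, and for the difference of the changes 3643 higher and 3726 lower of 15392. Leaving out 1 library gave 6 to 9 higher members in WT (6 without Th2-Th1 WT 2) and 14 to 20 lower ones in the labelled KO (14 without Th2 KO 3 and 14 without Th2-Th1 KO 1). Calls that ended in some of these fits were those on Bub1b, Ccnb2, Cenpf, Ect2, Foxm1, Kif20a and Mybl2 in WT (adjusted p from 0.0506 to 0.148). In the labelled KO they were Ccna2, Ccnb1, Cdc20, Cenpf, Nuf2, Nusap1, Plk1 and Plk4 (0.0528 to 0.141), and for the difference of the changes Kif2c, Mybl2, Ndc80, Nuf2, Plk1 and Smc4 (0.0525 to 0.0969).

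In Th2-Th1 cells few members differed between labelled KO and WT. Cdc20, Ect2 and Cdc25b were higher and Incenp and Smc4 lower, so 3 and 2 of 45, beneath the 17.6% and 16.1% of all tested genes. Over all genes, the 5810 calls became 3836 without Th2-Th1 WT 2. The median was -0.04 over the members and 0.09 over all genes. The differences were 0.93 ± 0.26 SE, adjusted p = 0.0078 for Cdc20, 0.63 ± 0.13 SE, adjusted p = 0.000898 for Ect2, 0.58 ± 0.21 SE, adjusted p = 0.0379 for Cdc25b, -0.77 ± 0.13 SE, adjusted p = 0.000131 for Incenp and -0.48 ± 0.18 SE, adjusted p = 0.049 for Smc4, and the groups overlapped in none of the 5. The calls on Cdc25b and Smc4 each ended without any of 4 of the 5 libraries (adjusted p from 0.0518 to 0.222), and that on Cdc20 without WT 1 (0.80, adjusted p = 0.0847). With only these 5 libraries, 6 were higher and 9 lower, and with the replicate block 2 and 6. Over all genes, these fits gave 3453 higher and 3208 lower of 14119, and 3006 and 2826 of 17254. The member counts lay beneath those shares too. A value that missed the threshold does not show that the genotypes were alike.

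Other genes of the cell cycle were counted beside the members, and their counts are to be read against the shares of all tested genes (7.43% higher and 3.45% lower in naive, 29.3% and 24.7% in Th2, and 17.6% and 16.1% in Th2-Th1 cells). Of 56 further mitosis genes, 42 were higher and 1 lower in naive cells labelled KO (median 1.78), among them Kif18b (4.47 ± 0.59 SE, adjusted p = 3.63e-05), Ska1 (4.16 ± 0.41 SE, adjusted p = 1.18e-06) and Kif15 (4.02 ± 0.21 SE, adjusted p = 2.38e-10). In Th2 cells 37 were higher and 1 lower (median 1.07), with Casc5, a kinetochore scaffold, (2.05 ± 0.22 SE, adjusted p = 1.55e-07). In Th2-Th1 cells 4 were higher and 5 lower (median 0.01). Of 21 MuvB, Rb, E2F and NF-Y proteins, 7 were higher in naive and 14 in Th2 cells labelled KO, with 0 and 2 lower. The repressor E2f8 was higher in both (5.33 ± 0.54 SE, adjusted p = 1.67e-06) and 3.12 ± 0.58 SE, adjusted p = 0.000144, and Nfyb, a subunit of NF-Y, was lower in Th2 (-1.80 ± 0.12 SE, adjusted p = 3.04e-10) and Th2-Th1 cells (-1.46 ± 0.14 SE, adjusted p = 1.51e-07). Of 10 cyclins and kinases of the phase before replication, 4 were higher and 0 lower in naive cells, among them Ccne2 (2.89 ± 0.29 SE, adjusted p = 1.54e-06) and Cdk6 (2.12 ± 0.15 SE, adjusted p = 9.24e-09), and 4 and 1 in Th2 cells. Of 15 inhibitors of cell cycle kinases and antiproliferative factors, 3 were higher in naive cells, including Wee1, which holds Cdk1 inactive (3.14 ± 0.42 SE, adjusted p = 4.6e-05). In Th2 cells 4 were higher and 4 lower, with Cdkn2c (2.25 ± 0.25 SE, adjusted p = 3.81e-07) and Cdkn1b, the p27 inhibitor, (-1.74 ± 0.14 SE, adjusted p = 2.6e-09). Among 17 subunits and partners of the anaphase-promoting complex, 2 were higher in naive cells, and 6 were higher and 3 lower in Th2 cells. The Th2 counts of the 10 cyclins and kinases, of the inhibitors and of this complex lie near the shares of all genes, as does the naive count of this complex. They are no result about those lists.

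Outside the 45, the 5 genes whose level followed the members' mean most closely over the 18 libraries were Sgol1 (Pearson r of 0.997), Hmmr (0.996), Ckap2l (0.995), Nek2 (0.994) and Spag5 (0.993). All 5 also encode proteins of the spindle, centromere or centrosome. The points share groups, so these values describe likeness only.

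Chromatin at the member starts was compared with that at the 10840 tested genes in the promoter table, from 1 peak list a condition and so with no test. Of 35 members with a start, all 35 had an ATAC peak, a site of open chromatin, within 1 kb in Th2 WT cells and 34 in the labelled KO, against 88.4% and 84.5% of tested genes. H3K27ac, a mark of active elements, was present at 33 in Th2 WT and 34 in the labelled KO, against 78.6% and 77.3%. Kif2c was without a peak in both H3K27ac lists and in the labelled KO ATAC list. Its start in the promoter table, 117178772 on the minus strand, lies inside the annotated gene (117159633 to 117182624). The annotated 5′ end of Kif2c was thus outside the 1 kb window. H3K4me1, a mark of primed and active elements, was present at 34 members in naive WT and 35 in Th2 WT cells, against 84% and 84.5%. In a second Th2 experiment it was at 31 members in WT and 28 in the labelled KO, against 77% and 80.1%. The labelled KO list lacked Plk1, Nuf2, Kif4, Ncapg, Smc2, Ube2c and Melk. The WT list lacked Plk1 and Smc2 as well, and also Cdk1 and Aurka, which had a peak in the labelled KO. H3K9me3, the repressive mark that Setdb1 places, was at 0 of 35 member starts in naive WT, naive labelled KO, Th2 WT and Th2 labelled KO cells, where it was at 0.978%, 0.231%, 1.05% and 0.277% of tested genes. In Th2 cells lacking Suv39h1, another such enzyme, Plk1 and Kif2c (at that internal start) had an H3K9me3 peak, 2 of 35 against 11.8%. Within 5 kb these counts were 0, 0, 2 and 0 against 7.14%, 0.609%, 8.22% and 0.59%, and 10 in cells lacking Suv39h1 against 34.4%. Among the 10 members without a start in the table, 2 had an H3K9me3 peak in or within 1 kb of the gene in naive WT, 1 in Th2 WT, 0 in both labelled KO lists and 6 in cells lacking Suv39h1. These 10 were Tpx2, Aurkb, Cdc25c, Shcbp1, Pbk, Smc4, Ccna2, Foxm1, Incenp and Kif20a.

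Finally, 21 of the 45 members overlap another annotated gene, for instance Kif20a with Brd8 and Cdc23, Ccna2 with Exosc9, Aurka with Cstf1 and Cdc20 with Elovl1. No source used here says whether counting used strand, so reads of such pairs may not have been told apart.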

How the data were processed

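RNA of 18 libraries (6 groups), with 13 peak lists, came from a series of 40 samples. The submitters' processing notes name cutadapt 1.3, TopHat2 2.0.5, BWA 0.7.10, MACS2 2.1.0, DESeq and mm10. The authors deposited the RNA values as a normalized signal, gene read counts divided by a size factor per library, in 2 identical copies of 39179 genes, of which the first was used. Whole reads were recovered for 100% of values above 0 within 0.01. The deposited peak lists hold scores, fold enrichment and -log10 p columns as the authors' caller wrote them, 1 list a condition. Scores only ranked peaks in an alternative, and the fold and -log10 p columns were not used.

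Values were tested as log2(value + 1) with limma 3.58.1 (trend) in R 4.3.3, in 1 fit of all libraries with 1 coefficient a group and 12 residual degrees of freedom. The filter kept values of at least 10 in at least 2 libraries (17254 genes, all 45 members), with Benjamini-Hochberg adjustment over all genes and a threshold of 0.05. Alternatives were pseudocounts of 0.5 and 5, no filter, TMM scaling, edgeR 4.0.16 and DESeq2 1.42.0 on recovered reads, only the libraries compared, a replicate block and leaving out each library. The fit was also run on simulated counts. These gave each gene the same mean in every group, apart from changed genes with a mean of at least 50. Genes near 0 in naive and high in Th2 cells were not simulated. 

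Values are given in every library for 14 genes fixed by name and, per comparison, for the 3 called members with the largest and 3 with the smallest change among those with a mean of at least 50. Other lists name up to 4 called genes. Members and lists, of roles, other cell cycle genes and cell type markers, were chosen with earlier results of these data known. Promoters and gene positions are from RefSeq (GRCm38.p6).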

Additional observations from a re-analysis of the deposited data

Results flagged for a closer look

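In naive WT cells, 1 library lay far from the other 3 in 4 of 46 quantities tested (45 members and their summed reads), where chance gives about 1 in 20. Plk4 was low in WT 1 (346, the others 411 to 421). WT 3 was high in Aurkb (12.7), Kif20a (121) and Kif4 (39.8). WT 3 also had the most genes with a read and the fewest reads.

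The genotype difference changed between naive and Th2 cells, by a test of the difference in limma, for 30 members in all, 25 lower and 5 higher, of which those with the largest and smallest changes and those always named are listed. It was lower in Th2 cells for Mki67 (-2.74 on the log2 scale), Top2a (-2.37), Cdk1 (-2.78), Aurka (-0.76), Aurkb (-5.13), Birc5 (-3.09), Bub1 (-4.35), Ttk (-4.30), Kif11 (-2.05), Ncaph (-0.71) and Ube2c (-2.41), and higher for Smc2 (0.83). The other higher ones were Kif23 (1.52), Cdc25b (1.37), Incenp (1.17) and Mad2l1 (1.04). Between Th2 and Th2-Th1 cells it fell for 21 members, among them Mki67 (-1.86), Top2a (-1.14), Plk1 (-1.24), Incenp (-2.61), Cenpe (-2.51), Cenpf (-2.52), Ndc80 (-1.06), Kif11 (-1.52), Prc1 (-1.12), Smc4 (-0.83), Foxm1 (-1.89) and Mybl2 (-1.86).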

How the results depend on the processing

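Of 405 member differences (45 members in 9 comparisons), 27 changed sign under some alternative. All 27 were at most 0.26 in size in the full fit, and none was called on either side of the change. Of the counts, those of naive cells, of Th2 against naive cells, of members higher in Th2 cells labelled KO and of the genotype difference in the Th2 rise stayed within 1.5 times under each alternative run. The 1 member lower in Th2 cells labelled KO became 0 with a pseudocount of 0.5, no filter or TMM, 2 with only the libraries compared, and 0 to 0 on leaving out 1 library. In Th2-Th1 cells, higher members numbered 6 by edgeR, 6 by DESeq2, 6 with only the libraries compared and 1 to 3 on leaving out 1 library, and lower ones 1 with a pseudocount of 0.5, no filter or TMM, 6 by DESeq2, 9 with only the libraries compared and 1 to 2 on leaving out 1. On the move to Th1 conditions, higher WT members numbered 17 by DESeq2, 23 with only the libraries compared and 6 to 9 on leaving out 1 library, and lower ones 8 with a pseudocount of 5, by edgeR or by DESeq2, 9 with only the libraries compared and 3 to 5 on leaving out 1. Lower labelled KO members numbered 42 by edgeR, 38 by DESeq2, 43 with only the libraries compared and 14 to 20 on leaving out 1. For the difference of these changes, higher members numbered 1 by DESeq2 and 1 with only the libraries compared, and lower ones 38. Counts over all genes moved as well. Genes lower in the labelled KO on the move numbered 2353 in the full fit, 2754 by edgeR, 2750 by DESeq2 and 3306 with only the libraries compared. Genes higher in WT on the move numbered 4444 in the full fit, 4348 by DESeq2 and 4205 with only the libraries compared. The cause was not tested in any of these.

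Over 11447 genes, the deviations of same-numbered libraries correlated at 0.10, -0.26 and -0.22 between genotypes in naive cells, and at 0.12, 0.08 and 0.29 between Th2 and Th2-Th1 cells labelled KO, and at -0.09 to 0.06 elsewhere. Not every pair of a comparison passed 0.1, so the libraries were taken to share only a number. Th2-Th1 cells were made from day 6 Th2 cells, and these correlations cannot show that same-numbered libraries were unpaired. With the replicate block, lower members in Th2-Th1 cells numbered 6 and higher ones 2, and the other counts stayed within 1.5 times.

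Within 5 kb, 35 member starts had a peak in the labelled KO ATAC, naive WT H3K4me1, labelled KO H3K27ac and both second-experiment H3K4me1 lists, against 89.7%, 86.8%, 80.7%, 88.6% (WT) and 90% (labelled KO) of tested genes, and 10 had H3K9me3 in cells lacking Suv39h1 (34.4%). With peaks at or above the median score, H3K4me1 was at 15 starts in naive WT (48.6%) and 20 in each Th2 WT list (47.9% and, in the second experiment, 52.6%). With at least 0.5 of the peak inside the window it was at 16 in each Th2 WT list (56.1% and 48.6%) and 15 in the labelled KO (56.8%). TTTGAA was in 13 promoters over the 250 bases before the start alone (37.1% against 18.3%). At the depth of these libraries 3 reads correspond to up to 5.43 in naive WT and 7.48 in Th2 WT cells, and members without a read were found in naive WT libraries alone, up to 7 in 1 library.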
